A study of Homo sapiens with 9 samples.

Results

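SRXN1, TXNRD1, TXN, GCLC, GCLM, SLC7A11, GSR, NQO1 and HMOX1 are targets of the transcription factor NRF2 that build and recycle the cell's thiol reductants, glutathione and thioredoxin, or belong to the same stress response. The 9 genes were chosen by name from the 17492 genes of the deposited table. All 9 were among the 12832 genes that had enough counts to be tested. They were measured by RNA-seq in HCCLM3, an established human hepatocellular carcinoma cell line with a high metastatic potential and a wild-type genotype according to the labels. The groups were the vehicle DMSO (control), quercetin at 50 µM and quercetin at 100 µM, with 3 libraries each. Quercetin is a plant flavonol, the series concerns its action on hepatocellular carcinoma, and the sources used here do not give how long the cells were treated.

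NRF2, the product of NFE2L2, is kept low by KEAP1, which presents it to a CUL3 ubiquitin ligase for degradation. Electrophiles and oxidants modify cysteines of KEAP1, NRF2 then accumulates, pairs with a small MAF protein and binds antioxidant response elements near its targets, while BACH1 competes for the same elements. Quercetin has been described as an inducer of this pathway in other cells. In liver cells the pathway is known for the detoxification of reactive compounds, and in part of the hepatocellular carcinomas it is active through mutations of NFE2L2 or KEAP1.

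None of the 9 genes rose at either dose, where 10.7% of all genes tested rose at 100 µM and 5.28% at 50 µM. At such shares few or none of 9 genes would be called higher. At 100 µM 7 of them fell against the control, by the most for SRXN1, which was 2.16-fold lower, and for SLC7A11 and GCLC, which were 1.69-fold and 1.63-fold lower. Of all genes tested 10.3% fell in that comparison. At 50 µM SRXN1 and GCLC alone among the 9 passed the test, both lower than in the control, where 6.31% of all genes fell. In these bulk libraries fewer cells of a kind and less RNA per cell cannot be told apart. HMOX1 passed in no comparison, with levels of 247.3 ± 35.5 CPM in the control, 227.6 ± 11.4 CPM at 50 µM, and 251.8 ± 29 CPM at 100 µM (SD, n = 3 each). CPM is the read count per 1e+06 reads, scaled by TMM. Tests are edgeR's quasi-likelihood F test with Benjamini-Hochberg adjustment over the 12832 genes, and a gene is said to rise or fall where the adjusted p was under 0.05.

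Library totals ran from 20061136 to 21599805 counts. One library of the control and one at 100 µM stood apart from their groups. The distance between libraries, as a chi-square per gene, was 28.2 and 28.1 from control replicate 1 to the other two, against 3.63 between those. It was 85 and 87.2 from replicate 3 at 100 µM to the other two, against 5.1 between those, and 4.29 to 4.82 among the libraries at 50 µM. For the 9 genes, values without these libraries are given beside each call they change. The 2 libraries were picked from these data, and the fit without both leaves 2 libraries each in the control and at 100 µM. In that fit 28.9% of all genes were lower at 50 µM, 24.4% at 100 µM and 22.7% between the doses. Its small p-values therefore do not single out a gene. The labels do not say whether replicates were separate cultures, and the p-values therefore measure only the spread between these libraries, which may be technical. Epithelial KRT8 was at 2650 to 3730 CPM and KRT18 at 716 to 1430 CPM, and EPCAM was under 1 CPM in all 9 libraries. Of the leukocyte markers, PTPRC was at most 1.06 CPM and CD14 and CD3E were under 1 CPM, while CD68, a lysosomal protein abundant in macrophages and not exclusive to them, was at 137 to 199 CPM in the control, 127 to 142 CPM at 50 µM, and 215 to 296 CPM at 100 µM. The 5 fibroblast markers summed to between 72.44 and 154.7 CPM over the 9 libraries, mostly from LUM, and the 4 endothelial markers to between 20.01 and 40.44 CPM, mostly from PECAM1. Of 10 hepatocyte markers 7 averaged at least 1 CPM in each group, and ALB was at 0.814 to 16.3 CPM. Their sum lay between 104 and 128.9 CPM in the control, 248.2 and 267.9 CPM at 50 µM, and 287.2 and 333.1 CPM at 100 µM. Most of the higher sum came from TF, at 17 to 40.2 CPM in the control, 127 to 136 CPM at 50 µM, and 139 to 196 CPM at 100 µM, and from FGB, at 4.57 to 10.4, 46.3 to 51.4 and 25.3 to 103 CPM in the same order. The markers did not move one way, since APOB was at 8.01 to 9.2 CPM in the control, 1.68 to 1.81 CPM at 50 µM, and 1.83 to 2.68 CPM at 100 µM. HNF4A was at 32.4 to 45 CPM in the control and 21.1 to 25.2 CPM at 50 µM. At 100 µM HNF4A had 37.6, 37.8 and 24.1 CPM, which overlapped with the control. The part of these marker differences in the results was not tested.

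The promoters of 6 of the 9 genes were available in RefSeq (GRCh38.p14), as 7 windows of 300 bases since TXNRD1 has 2 start sites. They were searched on both strands for the core of the antioxidant response element, TGACNNNGC, and for the variant TGAGNNNGC. The 2 patterns differ at the fourth base and cannot match the same bases on the same strand. Of 35116 human promoter windows of the same length, 13.3% held the first, 18.3% the second and 29.1% either. A match occurred in 4 of the 7 windows, namely those of GCLM, NQO1 and both starts of TXNRD1. The windows of SRXN1, TXN and GCLC held neither pattern, and SLC7A11, GSR and HMOX1 had no entry. Bases farther than 250 before the start were not searched, so a window without a match does not show that a gene lacks the element. Printed are 251 bases of 4 windows, from 250 bases before the start to the start base, with matches in capitals; the set shows both genes with a window that holds each pattern (GCLM and the second start of TXNRD1), NQO1 with the second pattern, and the gene with the largest fall (SRXN1). They lie at chr1:93909430-93909680 (minus strand, GCLM), chr12:104286782-104287032 (plus strand, TXNRD1), chr16:69726560-69726810 (minus strand, NQO1) and chr20:653200-653450 (minus strand, SRXN1).
GCLM: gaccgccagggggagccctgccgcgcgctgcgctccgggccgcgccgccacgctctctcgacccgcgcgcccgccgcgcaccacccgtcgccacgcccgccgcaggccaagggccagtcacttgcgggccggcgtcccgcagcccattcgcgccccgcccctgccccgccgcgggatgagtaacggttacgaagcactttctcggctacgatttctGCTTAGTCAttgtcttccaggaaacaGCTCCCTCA
TXNRD1: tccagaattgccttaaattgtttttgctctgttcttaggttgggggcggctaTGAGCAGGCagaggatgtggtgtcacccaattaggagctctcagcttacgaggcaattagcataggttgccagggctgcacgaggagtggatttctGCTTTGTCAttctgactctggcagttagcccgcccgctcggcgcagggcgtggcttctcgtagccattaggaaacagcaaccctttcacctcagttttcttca
NQO1: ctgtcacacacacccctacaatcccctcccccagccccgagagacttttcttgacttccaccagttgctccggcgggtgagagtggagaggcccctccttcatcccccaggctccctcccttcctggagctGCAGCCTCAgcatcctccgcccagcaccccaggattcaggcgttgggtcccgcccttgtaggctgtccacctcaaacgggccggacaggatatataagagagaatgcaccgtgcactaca
SRXN1: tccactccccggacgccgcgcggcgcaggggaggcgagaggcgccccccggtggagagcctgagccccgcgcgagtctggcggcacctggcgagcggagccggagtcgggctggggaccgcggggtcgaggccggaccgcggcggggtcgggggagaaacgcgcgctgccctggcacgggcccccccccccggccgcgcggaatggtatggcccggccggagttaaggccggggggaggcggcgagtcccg
In GCLM the match TGACTAAGC reads on the opposite strand 34 to 26 bases before the start. The match TGAGGGAGC, also on the opposite strand, covers the bases from 8 before the start to the start base. In TXNRD1 the match TGACAAAGC reads on the opposite strand 102 to 94 bases before the second start, and TGAGCAGGC on the promoter strand 198 to 190 bases before it. The match of NQO1, TGAGGCTGC, reads on the opposite strand 119 to 111 bases before the start. These matches are letters in a window and not measured binding sites.

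Per length, the 9 genes covered a wide range in the control cells. TXN had 4184 ± 405.9 TPM (transcripts per 1e+06 transcripts, a level per length), TXNRD1 3430 ± 45.8 TPM and NQO1 2357 ± 135.4 TPM (SD, n = 3), which placed them 14, 21 and 46 among the 17492 genes. The next in order were SRXN1 with 451.5 ± 36.2 TPM, GSR with 379.7 ± 21.2 TPM, HMOX1 with 350.9 ± 45 TPM, GCLM with 335 ± 22.2 TPM and GCLC with 272.8 ± 3.52 TPM. SLC7A11 was the lowest at 106 ± 7.28 TPM, place 1700 of 17492. Of the neighbours in this order, GSR and HMOX1 overlapped in their control libraries, as did HMOX1 and GCLM, and the other pairs of neighbours were separate. At 50 µM and at 100 µM TXN and TXNRD1 overlapped, with means of 3453 and 3520 TPM at 50 µM and of 2928 and 2783 TPM at 100 µM. The summed level of the 9 genes was 11214, 12197 and 12189 TPM in the control, 11194, 10527 and 10592 TPM at 50 µM, and 9382, 8918.6 and 8219.9 TPM at 100 µM. Every library at 100 µM lay below all the others. Every library at 50 µM lay below the control, though narrowly, at 11194 against 11214 TPM for the closest libraries. TXN, TXNRD1 and NQO1 made up most of this sum. TPM is not scaled by TMM, and the sum was not tested.

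**Figure D1:**
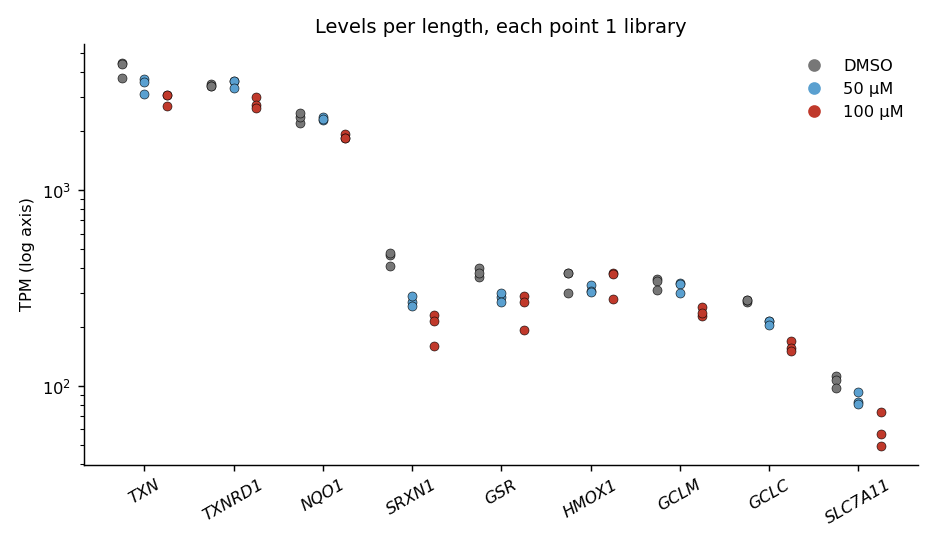
TPM of the 9 genes on a log axis, each point 1 library, in the order of the control mean, with DMSO, 50 µM and 100 µM side by side for each gene. TXN, TXNRD1 and NQO1 stand at or above 1850 TPM in all 9 libraries and SLC7A11 stays between 49.65 and 112.7 TPM.

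Cystine import is the first step of glutathione supply, and SLC7A11 encodes the transport subunit of the cystine/glutamate antiporter (gene 23657, chr4:138164097-138243126 in the authors' table on GRCh38). It had 331.8, 264.6 and 248.1 CPM at 100 µM, against 495.8, 478.7 and 449.9 CPM in the control. All libraries at 100 µM lay below all control libraries. SLC7A11 fell at 100 µM, with a log2 fold change of −0.75 ± 0.112 (SE; edgeR adjusted p = 0.00247), and of −0.66 without replicate 3 at 100 µM (edgeR adjusted p = 0.000631). At 50 µM it had 390.7, 426.3 and 385.2 CPM, which did not overlap with the control either, but the test was not passed at a log2 fold change of −0.24 ± 0.111 (edgeR adjusted p = 0.16). It was passed in 2 of 21 alternatives. These were the fit without both libraries that stood apart (−0.21, edgeR adjusted p = 0.0336) and a fit of only the 2 groups compared (−0.25, edgeR adjusted p = 0.0259). Between the doses SLC7A11 was lower at 100 µM by a log2 fold change of −0.51 ± 0.111 (edgeR adjusted p = 0.0387). That call was lost on leaving out any of 6 single libraries, namely control replicate 2 or 3, any library at 50 µM, or replicate 2 at 100 µM, with edgeR adjusted p-values between 0.0691 and 0.149. An antisense gene, SLC7A11-AS1, overlaps SLC7A11, and without a stated strand setting the reads of the pair cannot be told apart.

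SLC3A2 encodes the heavy chain that carries SLC7A11 to the membrane. It had 389.3, 422.6 and 241.5 CPM at 100 µM, against 478.3, 655.7 and 681.5 CPM in the control. The groups did not overlap, and both libraries that stood apart were the lowest of their groups. SLC3A2 fell at 100 µM with a log2 fold change of −0.79 (edgeR adjusted p = 0.0229), a call that was lost without control replicate 2 or 3 (edgeR adjusted p = 0.0887 and 0.0969).

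Glutamate-cysteine ligase catalyses the rate-limiting step of glutathione synthesis and consists of a catalytic subunit, GCLC (gene 2729, chr6:53497341-53545101), and a modifier subunit, GCLM (gene 2730, chr1:93885199-93962469). GCLC had 426.2, 444.8 and 451.2 CPM in the control, 363.5, 351.7 and 348.5 CPM at 50 µM, and 275.8, 261.5 and 273.7 CPM at 100 µM. The 3 groups were separate and ordered by dose. GCLC fell at both doses, with a log2 fold change against the control of −0.71 ± 0.0681 at 100 µM (edgeR adjusted p = 0.000399) and of −0.31 ± 0.0678 at 50 µM (edgeR adjusted p = 0.0213). The difference between the doses was −0.39 ± 0.0679 (edgeR adjusted p = 0.0177). The call at 100 µM held in all 21 alternatives, with log2 fold changes from −0.77 to −0.68. At 50 µM it was lost on leaving out control replicate 2 or 3 or any library at 50 µM, where the adjusted p lay between 0.0832 and 0.113, while the log2 fold change stayed between −0.33 and −0.29. Between the doses it was lost without any one library at 50 µM, or without replicate 1 or 2 at 100 µM, with edgeR adjusted p-values between 0.0518 and 0.118.

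GCLM had 784.6, 785.4 and 720.7 CPM in the control, 798.6, 766.6 and 719.5 CPM at 50 µM, and 579.7, 536.6 and 599.5 CPM at 100 µM. The libraries at 50 µM overlapped with the control, and those at 100 µM lay below both. The log2 fold change at 50 µM was −0.0038, with a 95% interval from −0.18 to 0.18, so a change of the size seen in SRXN1 lies outside the interval. At 100 µM GCLM fell by 0.42 ± 0.0811 against the control (edgeR adjusted p = 0.00777, held in all 21 alternatives). Against 50 µM the log2 fold change was −0.41 ± 0.0811 (edgeR adjusted p = 0.0261), a call that was lost without control replicate 2, any library at 50 µM, or replicate 1 or 2 at 100 µM, with adjusted p-values between 0.0585 and 0.144.

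At 50 µM GCLC passed the test and GCLM did not, and the pair was compared directly by a ratio per library. The ratio of GCLC to GCLM, in TPM, was 0.766, 0.798 and 0.887 in the control libraries, 0.641, 0.649 and 0.686 in those at 50 µM, and 0.671, 0.688 and 0.644 in those at 100 µM. The mean ratio was 0.817 ± 0.0631 in the control (SD, n = 3 here and for the doses), 0.659 ± 0.0237 with 50 µM and 0.667 ± 0.0222 with 100 µM. Both doses lay below the control with no overlap, and the doses overlapped with each other. An exact permutation test over the libraries (two-sided) gave p = 0.1 for each dose against the control, which is the smallest p that 3 libraries against 3 allow, and p = 0.7 between the doses. With the ratio of TXN to TXNRD1 given below, 2 ratios were tested in 6 comparisons, none of which could reach 0.05.

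**Figure D2:**
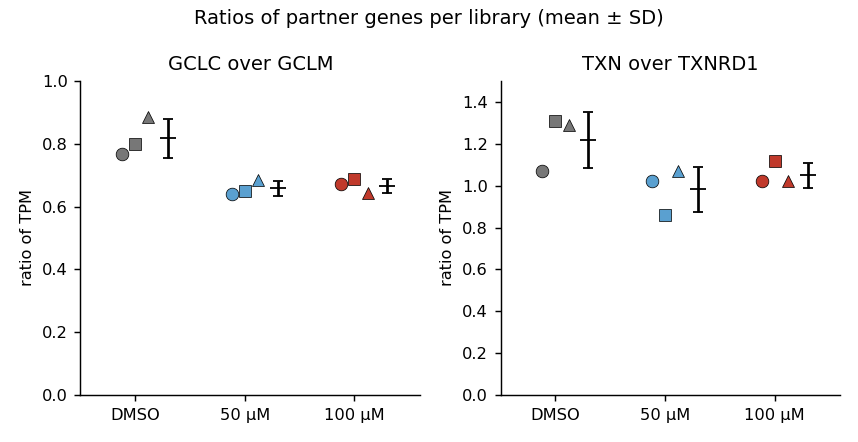
Ratio of TPM of GCLC over GCLM (left) and of TXN over TXNRD1 (right) in each library, with mean ± SD of 3 libraries beside the points; circles, squares and triangles are replicates 1, 2 and 3. The GCLC to GCLM ratio is under 0.69 in all 6 quercetin libraries and above 0.76 in all 3 controls.

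GSR (gene 2936, on chromosome 8 from 30676451 to 30727846) encodes glutathione reductase, which restores reduced glutathione with NADPH. It had 491.6, 559.1 and 538.2 CPM in the control, 414.3, 422.6 and 398 CPM at 50 µM, and 402.4, 386.2 and 298.4 CPM at 100 µM. Both doses lay below the control without overlap, and they overlapped with each other. GSR fell at 100 µM, with a log2 fold change of −0.55 ± 0.113 (edgeR adjusted p = 0.0101). Replicate 3, which stood apart, was 0.757 of the mean of the other two, and without it the log2 fold change was −0.42 (edgeR adjusted p = 0.00177). The call was lost without control replicate 2 (log2 fold change −0.50, edgeR adjusted p = 0.053). At 50 µM the log2 fold change of −0.36 ± 0.113 had an edgeR adjusted p of 0.0625. It was 0.047 without control replicate 1 and 0.00251 without replicate 3 at 100 µM, a library that enters this comparison through the shared estimate of the spread. Without both it was 1.77e-07, at a log2 fold change of −0.41. The adjusted p was also under the threshold in a fit of only the 2 groups compared (0.00569) and by DESeq2 (0.0217). These are the 5 of 21 alternatives in which GSR passed at 50 µM. In the others the adjusted p ran up to 0.232, without control replicate 2.

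On the thioredoxin side, SRXN1 (gene 140809, chr20:646615-653200) encodes sulfiredoxin, which reduces overoxidised peroxiredoxins. SRXN1 had 466.9, 538.6 and 566.6 CPM in the control, 326.2, 337.7 and 313.6 CPM at 50 µM, and 265.8, 256.8 and 205.6 CPM at 100 µM. The 3 groups were separate and ordered by dose. SRXN1 fell at both doses, with a log2 fold change against the control of −1.11 ± 0.113 at 100 µM (95% interval −1.36 to −0.86, edgeR adjusted p = 0.000503), the 88th lowest log2 fold change of the 12832 genes. At 50 µM it was −0.69 ± 0.113 (95% interval −0.94 to −0.43, edgeR adjusted p = 0.0107). Between the doses it was −0.42 ± 0.112 and missed the threshold (edgeR adjusted p = 0.0642). It passed in 5 of 21 alternatives, among them the fit without control replicate 1 (edgeR adjusted p = 0.0483). At a smaller log2 fold change of −0.32 it passed without replicate 3 at 100 µM (edgeR adjusted p = 0.018), and also without both libraries that stood apart (−0.31, edgeR adjusted p = 4.28e-05). The call at 100 µM against the control held in all 21 alternatives, with −0.99 without replicate 3 at 100 µM and −1.07 without both libraries that stood apart. The call at 50 µM was lost without control replicate 2 or 3 or any library at 50 µM, with edgeR adjusted p-values between 0.0505 and 0.0692 and log2 fold changes between −0.71 and −0.62.

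TXN (gene 7295, chr9:110243810-110256507) encodes thioredoxin, the small protein that reduces disulfides of peroxiredoxins and ribonucleotide reductase. TXN had 1173, 1430 and 1439 CPM in the control, 1245, 1016 and 1210 CPM at 50 µM, and 985.6, 1012 and 958 CPM at 100 µM. The libraries at 100 µM lay below all others, and those at 50 µM overlapped with the control. TXN fell at 100 µM, with a log2 fold change of −0.45 ± 0.108 against the control (edgeR adjusted p = 0.0182). Without control replicate 2 or control replicate 3 the log2 fold changes were −0.40 and −0.39, with an edgeR adjusted p of 0.0848 for each. At 50 µM the log2 fold change was −0.22 ± 0.108 (edgeR adjusted p = 0.19), and between the doses −0.23 ± 0.108 (edgeR adjusted p = 0.246). Without both libraries that stood apart TXN passed in both of these comparisons, with −0.31 at 50 µM against the control (edgeR adjusted p = 0.000374) and −0.20 between the doses (edgeR adjusted p = 0.0155). The value at 50 µM was −0.13 without replicate 2 of that dose, the lowest of its group.

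TXNRD1 (gene 7296, chr12:104215396-104350307) encodes the selenoprotein thioredoxin reductase, which returns thioredoxin to its reduced form with NADPH. TXNRD1 had 5716, 5699 and 5844 CPM in the control, 6308, 6116 and 5880 CPM at 50 µM, and 5023, 4675 and 4861 CPM at 100 µM. The libraries at 50 µM lay above the control without overlap, yet with a log2 fold change of 0.08 ± 0.0745 the test was not passed (95% interval −0.08 to 0.25, edgeR adjusted p = 0.449). At 100 µM TXNRD1 was lower than the control by a log2 fold change of −0.25 ± 0.0745 (edgeR adjusted p = 0.0434). This call was close to the threshold and held in 8 of 21 alternatives; leaving out any 1 library except replicate 3 at 100 µM ended it, with edgeR adjusted p-values between 0.0576 and 0.152. Against 50 µM the log2 fold change was −0.33 ± 0.0746 (edgeR adjusted p = 0.043), lost without any one library except control replicate 1 and replicate 3 at 100 µM, with edgeR adjusted p-values between 0.0768 and 0.188. The ratio of TXN to TXNRD1, in TPM, was 1.07, 1.31 and 1.29 in the control libraries, 1.02, 0.861 and 1.07 in those at 50 µM, and 1.02, 1.12 and 1.02 in those at 100 µM, which overlapped with the control. The exact permutation p (two-sided) was 0.2 at 100 µM and 0.1 at 50 µM against the control, and 0.6 between the doses.

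NQO1 and HMOX1 stand outside the thiol systems and serve as general markers of the response. NQO1 (gene 1728, chr16:69709401-69732999) encodes a quinone reductase. NQO1 had 2500, 2730 and 2918 CPM in the control, 2835, 2662 and 2816 CPM at 50 µM, and 2215, 2197 and 2379 CPM at 100 µM. The libraries at 100 µM lay below all others, and those at 50 µM lay within the control range. The log2 fold change at 100 µM was −0.26 ± 0.0847 against the control (95% interval −0.45 to −0.07) and missed the threshold (edgeR adjusted p = 0.0532). It passed in 8 of 21 alternatives, among them DESeq2 (adjusted p = 0.00765) and the fits without control replicate 1 (−0.31, edgeR adjusted p = 0.0265) without replicate 3 at 100 µM (−0.29, edgeR adjusted p = 0.0144) or without both (−0.35, edgeR adjusted p = 2.11e-05). Against 50 µM it was −0.29 ± 0.0847 (edgeR adjusted p = 0.0822) and passed in 5 of 21 alternatives. Among these its edgeR adjusted p was 0.00975 without replicate 3 at 100 µM and 2.31e-05 without both. At 50 µM against the control it was 0.03 ± 0.0846 (95% interval −0.16 to 0.22, edgeR adjusted p = 0.834).

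HMOX1 (gene 3162, chr22:35381096-35394207) encodes heme oxygenase 1, which breaks heme down to biliverdin, iron and carbon monoxide, and which BACH1 represses. HMOX1 had 206.5, 265 and 270.4 CPM in the control, 240.2, 217.9 and 224.7 CPM at 50 µM, and 265.7, 271.2 and 218.4 CPM at 100 µM. The groups overlapped in each comparison, and the libraries that stood apart were the lowest of their groups. The log2 fold change was 0.03 ± 0.122 at 100 µM (95% interval −0.25 to 0.30, edgeR adjusted p = 0.896) and −0.12 ± 0.122 at 50 µM (95% interval −0.39 to 0.15, edgeR adjusted p = 0.515), and 0.15 ± 0.122 between the doses (edgeR adjusted p = 0.531). Without both libraries that stood apart, HMOX1 was lower at 50 µM than in the control (log2 fold change −0.23, edgeR adjusted p = 0.000702) and higher at 100 µM than at 50 µM (0.25, edgeR adjusted p = 0.000551), while 100 µM against the control gave 0.01 (edgeR adjusted p = 0.882). HMOX1 was the one gene of the 9 whose libraries at 100 µM overlapped with the control.

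**Figure D3:**
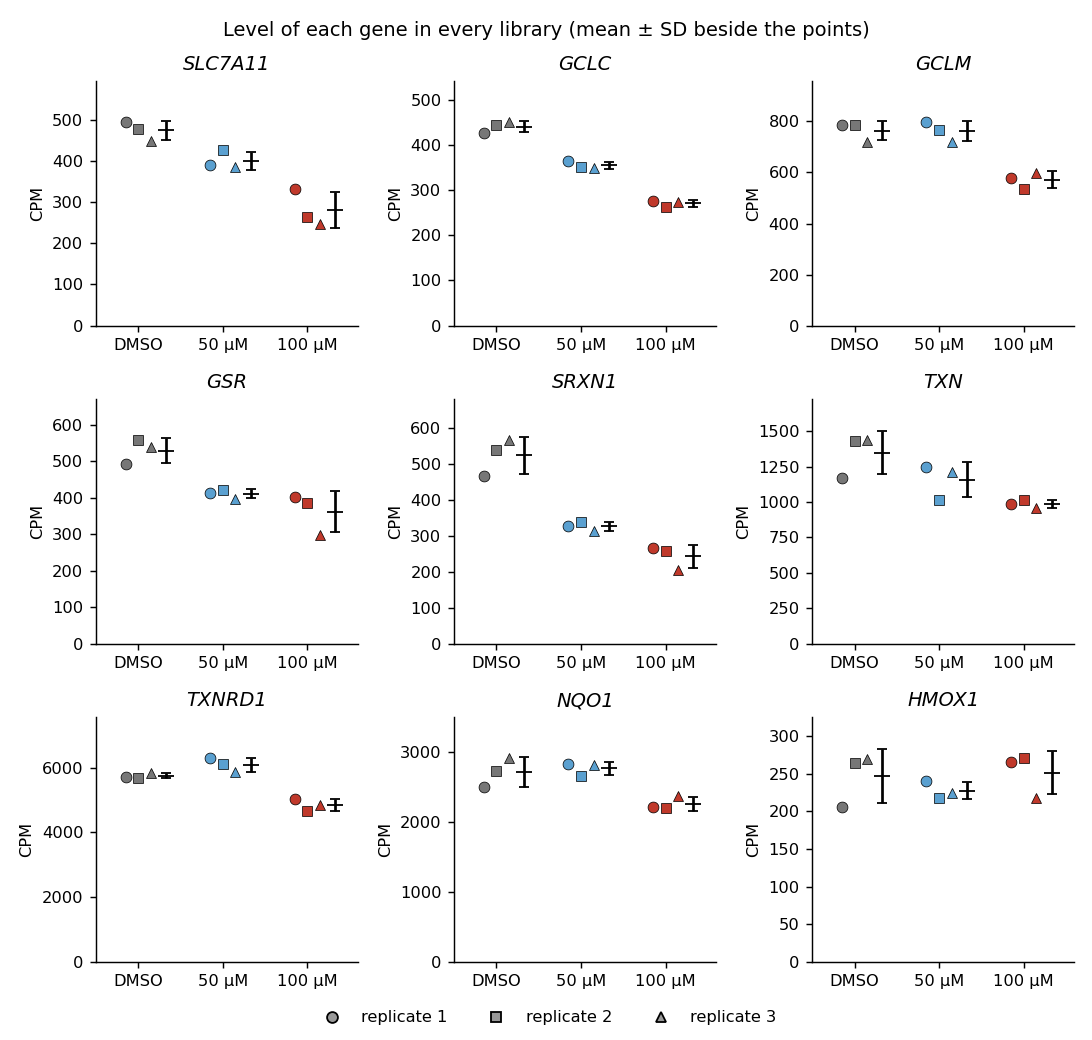
CPM of the 9 genes in each library, 1 panel per gene with axes from 0, for DMSO, 50 µM and 100 µM; bars are mean ± SD of 3 libraries. SRXN1, GCLC and SLC7A11 have 3 separate groups ordered by dose, the libraries at 100 µM of GCLM, TXN, TXNRD1 and NQO1 lie below all others, and HMOX1 overlaps in all groups.

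Over the 9 genes, 7 fell at 100 µM against the control and 0 rose, with a median log2 fold change of −0.45. Over all tested genes 10.3% were called lower and 10.7% higher in that comparison, 21.0% in either direction, and the median was 0.000873. At 100 µM 8 of the 9, all but HMOX1, lay below the control in every library, where 18.6% of all genes did and 17.3% lay above it. At 50 µM 2 fell and 0 rose, with a median of −0.22, against 6.31% lower, 5.28% higher and 11.6% in either direction of all genes, whose median was 0.00329. Here 4 of the 9 lay below the control without overlap (SRXN1, GCLC, SLC7A11 and GSR) and 1 above it (TXNRD1), where 24.6% of all genes lay below and 24.4% above. Between the doses 4 were lower at 100 µM and 0 higher, with a median of −0.33, against 1.89% lower, 2.25% higher and 4.15% in either direction of all genes, whose median was 0.0121. All but GSR and HMOX1, 7 of 9, lay below 50 µM without overlap, against 14.4% of all genes below and 13.3% above. These counts depended on single libraries. At 100 µM against the control 4 fell without control replicate 2, a fit in which 3.82% of all genes fell. At 50 µM 0 fell without control replicate 2 or 3 or any one library at 50 µM, where 0.331% to 0.578% of all genes did. Between the doses 0 were lower without any one library at 50 µM or without replicate 2 at 100 µM, 1 without control replicate 2 or replicate 1 at 100 µM, and 2 without control replicate 3, with 0.0924% to 0.685% of all genes lower in these fits. Without both libraries that stood apart, 8 were lower at 100 µM and 6 at 50 µM against the control, and 7 between the doses, beside 24.4%, 28.9% and 22.7% of all genes in the same comparisons. The 0 higher calls were also 0 at an unadjusted p under 0.05 and by DESeq2 in each comparison. The 2 comparisons with the control share the control libraries, so their calls are not independent of each other.

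**Figure D4:**
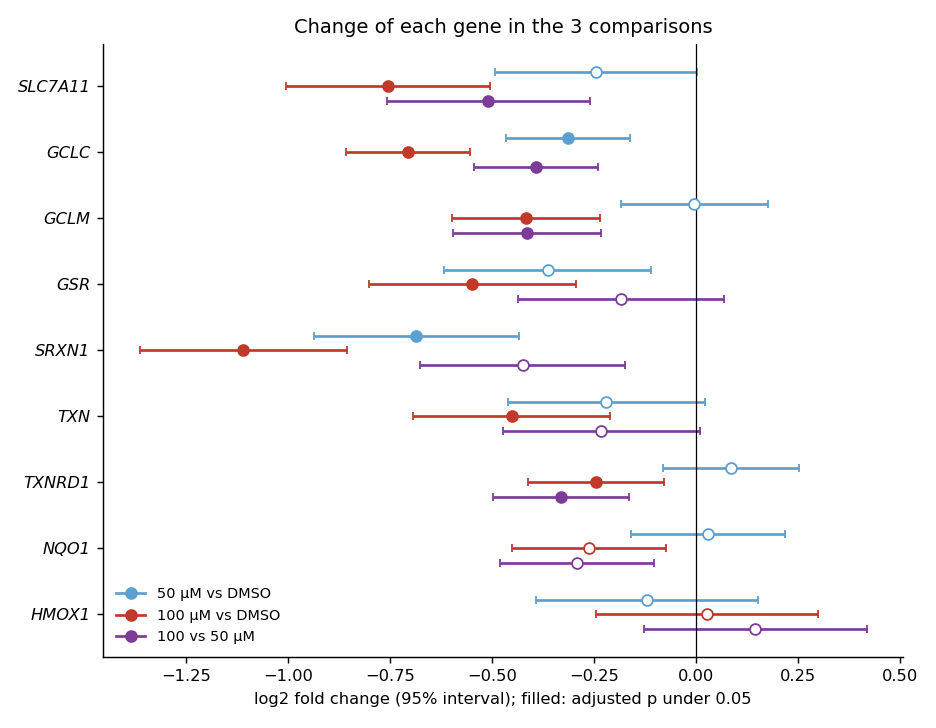
Log2 fold change of the 9 genes with the 95% interval in 50 µM against DMSO, 100 µM against DMSO and 100 µM against 50 µM; filled points have an edgeR adjusted p under 0.05. Of the 9 genes, 7 are filled at 100 µM against DMSO, 2 at 50 µM and 4 between the doses, and all filled points are below 0.

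The authors' deposited table, made with DESeq2 according to its headers, lists 7 of the 9 genes lower at 100 µM against the control at a q-value under 0.05, 4 at 50 µM, 6 between the doses, and 0 higher in each. The shares of all genes in the authors' results were not counted. DESeq2 run here called 12.9%, 10.6% and 5.29% of all genes lower in these comparisons, and 13.5%, 9.42% and 5.61% higher. The additional genes at 50 µM in the authors' deposited table were SLC7A11 (log2 fold change −0.25, q = 0.008) and GSR (−0.37, q = 3.38e-05).

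The regulators of NRF2 were measured as well. NFE2L2, the gene of NRF2 itself, had 181.5, 172.4 and 167.2 CPM at 100 µM, against 188.8, 234.8 and 243.1 CPM in the control. The groups did not overlap, and NFE2L2 fell with a log2 fold change of −0.36 (edgeR adjusted p = 0.0347). This call held in 12 of 21 alternatives and was lost without any one library except control replicate 1 and replicate 3 at 100 µM, with edgeR adjusted p-values between 0.0522 and 0.152. At 50 µM it had 203, 191.7 and 184.2 CPM and missed the threshold against the control (edgeR adjusted p = 0.193, 0.0277 without control replicate 1 and 3.55e-05 without both libraries that stood apart). KEAP1, the inhibitor, was low throughout, at 8.2 ± 0.995 CPM in the control, 8.11 ± 0.126 CPM at 50 µM, and 7.26 ± 0.208 CPM at 100 µM, and passed in no comparison. BACH1, the repressor, was at 92.5 ± 2.96 CPM in the control, 79.3 ± 4.77 CPM at 50 µM, and 94.7 ± 13.7 CPM at 100 µM, and passed in no comparison either; without replicate 3 at 100 µM it was lower at 50 µM than in the control (log2 fold change −0.21, edgeR adjusted p = 0.0299), as it was without both (−0.23, edgeR adjusted p = 0.00364). MAFF, a small MAF protein that partners NRF2 or BACH1, had 12.74, 17.72 and 14.8 CPM in the control, 14.96, 13.83 and 16.75 CPM at 50 µM, and 28.03, 32.4 and 28.06 CPM at 100 µM. It rose at 100 µM. Its log2 fold change was 0.97 against the control (edgeR adjusted p = 0.0019, held in all 21 alternatives) and 0.96 against 50 µM (edgeR adjusted p = 0.00907, and 0.0633 and 0.055 without replicates 1 and 2 at 50 µM). SQSTM1, the autophagy receptor p62 that sequesters KEAP1 and is also an NRF2 target, had 2424, 3068 and 3090 CPM in the control, 1972, 2061 and 2062 CPM at 50 µM, and 1739, 1811 and 1633 CPM at 100 µM. It fell against the control with log2 fold changes of −0.49 at 50 µM (edgeR adjusted p = 0.0199) and −0.73 at 100 µM (edgeR adjusted p = 0.00224). Of the 10 genes of NRF2 control, 1 was higher and 4 were lower at 100 µM than in the control, where 10.7% of all genes were higher and 10.3% lower.

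Further genes of the same pathways were counted in 6 lists of 101 genes, of which 100 were tested. At 100 µM against the control 4 of the 100 were higher and 21 lower, with a median log2 fold change of −0.06, against 10.7% higher and 10.3% lower of all genes. At 50 µM 6 were higher and 9 lower, near the 5.28% and 6.31% of all genes, and between the doses 2 were higher and 3 lower, near the 2.25% and 1.89%. Without both libraries that stood apart, 28 were higher and 39 lower at 100 µM, where 24.2% of all genes were higher and 24.4% lower. In the same fit 35 were higher and 31 lower at 50 µM, with 28.5% and 28.9% of all genes, and 16 higher and 41 lower between the doses, with 24.6% and 22.7%. The counts also moved with single libraries, from 7 lower at 100 µM without control replicate 3 (3.52% of all genes) to 30 lower without replicate 3 at 100 µM (14.6% of all genes). At 50 µM they ran from 0 in either direction, without control replicate 2 or 3 or any one library at 50 µM, to 25 higher and 21 lower without replicate 3 at 100 µM, where the shares of all genes were 18.4% and 18.2%. Among the 16 genes listed as other NRF2 targets 6 were lower and 0 higher at 100 µM, with a median of −0.38. At 50 µM 4 were lower and 0 higher, beside 10.3% and 6.31% of all genes lower at 100 µM and 50 µM, and 10.7% and 5.28% higher. Of these CBR3, a carbonyl reductase, was lowest, with 14.18, 13.25 and 6.967 CPM at 100 µM, against 24.47, 32.09 and 35.9 CPM in the control (log2 fold change −1.42, edgeR adjusted p = 0.00431). Its neighbour in function CBR1 fell by 0.73 at 100 µM (edgeR adjusted p = 0.00125) and by 0.42 at 50 µM (edgeR adjusted p = 0.0231). The quinone reductase NQO2 fell by 0.45 at 100 µM (edgeR adjusted p = 0.00639). The list of 16 does not hold every NRF2 target, since SQSTM1 was counted under NRF2 control. The 6 genes higher at 50 µM, GSTA1 and TALDO1 among them, were all in other lists. They were 3 glutathione genes and 1 each of the thioredoxin, NADPH supply and heme and iron lists. The 0 higher therefore holds for the list as drawn and not for all NRF2 targets. At 100 µM the calls of CBR1, CBR3, NQO2, FECH, MAFF and SQSTM1 held in all 21 alternatives. At 50 µM every call of a related gene given here was lost on leaving out control replicate 2 or 3 or any one library at 50 µM, with edgeR adjusted p-values between 0.051 and 0.191.

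Of 34 other glutathione genes, 7 were lower and 1 higher at 100 µM, and 4 were lower and 3 higher at 50 µM, where 6.31% of all genes were lower and 5.28% higher; at 100 µM these shares were 10.3% and 10.7%. GPX3, the secreted glutathione peroxidase, fell at 50 µM to 23.02, 20.28 and 21.82 CPM, against 42.77, 58.8 and 62.39 CPM in the control (log2 fold change −1.33, edgeR adjusted p = 0.00946). At 100 µM GPX3 had 45.69, 46.02 and 27.22 CPM, above 50 µM in all 3 libraries (log2 fold change 0.87, edgeR adjusted p = 0.0484), a call that was lost without any one library except control replicate 1 and replicate 3 at 100 µM, with edgeR adjusted p-values between 0.0766 and 0.171. GGT1, which cleaves extracellular glutathione, fell by 0.91 at 50 µM (edgeR adjusted p = 0.00982). The glutathione S-transferase GSTA1 rose at 50 µM with a log2 fold change of 0.86 (edgeR adjusted p = 0.0453, held in 9 of 21 alternatives). Its value was 1.29 without control replicate 1, which stood apart (edgeR adjusted p = 0.000208). GGT7 rose at 100 µM with a log2 fold change of 1.15 (edgeR adjusted p = 0.0185), at 6.595, 6.415 and 11.81 CPM, against 4.337, 3.487 and 3.305 CPM in the control; it did not pass without control replicate 2 or 3 (edgeR adjusted p = 0.0721 and 0.0766). CHAC2, which degrades glutathione, fell by 0.79 at 100 µM (edgeR adjusted p = 0.0417), and only the fits without replicate 1 or replicate 3 at 100 µM kept that call among those with 1 library left out (edgeR adjusted p of the others 0.0503 to 0.134). Without replicate 3 at 100 µM, which had 6.275 CPM beside 13.33 and 12.6 CPM in the other two, the log2 fold change of CHAC2 was −0.51 (edgeR adjusted p = 0.00757).

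Of 22 other thioredoxin genes, 1 was higher and 1 lower at 100 µM, with a median of 0.11, and 1 was higher and 0 lower at 50 µM, shares of 22 that are all under those of all genes given above. PRDX6, a peroxiredoxin that uses glutathione, fell by 0.33 at 100 µM (edgeR adjusted p = 0.0264), a call that stood without control replicate 1, replicate 2 at 50 µM or replicate 3 at 100 µM and was lost without any other library (edgeR adjusted p between 0.0503 and 0.0855). TXNDC17, a thioredoxin-like protein, rose by 0.38 (edgeR adjusted p = 0.0157, and 0.0697 without control replicate 3). The mitochondrial peroxiredoxin PRDX3 rose by 0.36 at 50 µM (edgeR adjusted p = 0.0246). TXNIP, which binds and inhibits thioredoxin, was named after its values were seen. It had 45.88, 12.44 and 11.54 CPM in the control, 16.74, 18.89 and 16.33 CPM at 50 µM, and 25.67, 23.66 and 284.2 CPM at 100 µM. The 2 high values belong to the 2 libraries that stood apart, and TXNIP passed in no comparison (edgeR adjusted p = 0.112 at 100 µM against the control). Without both, TXNIP was higher than in the control at 100 µM (log2 fold change 1.05, edgeR adjusted p = 1.89e-09) and at 50 µM (0.53, edgeR adjusted p = 3.84e-05). That fit drops the 2 extreme values of TXNIP and leaves 2 libraries each in the control and at 100 µM. In it 24.2% of all genes were higher at 100 µM and 28.5% at 50 µM, so these p-values do not single out TXNIP.

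NADPH feeds both reductases. Of 9 tested NADPH genes 1 was higher and 1 lower at 100 µM, beside 10.7% higher and 10.3% lower of all genes. The malic enzyme ME1 fell by 0.34 at 100 µM (edgeR adjusted p = 0.0147, and 0.0554 without control replicate 3). PGLS, of the pentose phosphate pathway, rose by 0.31 (edgeR adjusted p = 0.0214), which was lost without control replicate 2 or 3 or replicate 2 at 100 µM (edgeR adjusted p between 0.0528 and 0.0883). TALDO1, of the same pathway, rose by 0.30 at 50 µM (edgeR adjusted p = 0.0328, held in 12 of 21 alternatives). Of 9 heme and iron genes 0 were higher and 2 lower at 100 µM, beside the same shares of all genes. The 2 lower genes were the heme transporter SLC48A1, with a log2 fold change of −0.70 (edgeR adjusted p = 0.0138, and 0.0624 without control replicate 3), and FECH, the last enzyme of heme synthesis, with −0.56 (edgeR adjusted p = 0.00561). ALAD, an early enzyme of heme synthesis, rose by 0.42 at 50 µM (edgeR adjusted p = 0.0487, held in 8 of 21 alternatives).

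**Figure D5:**
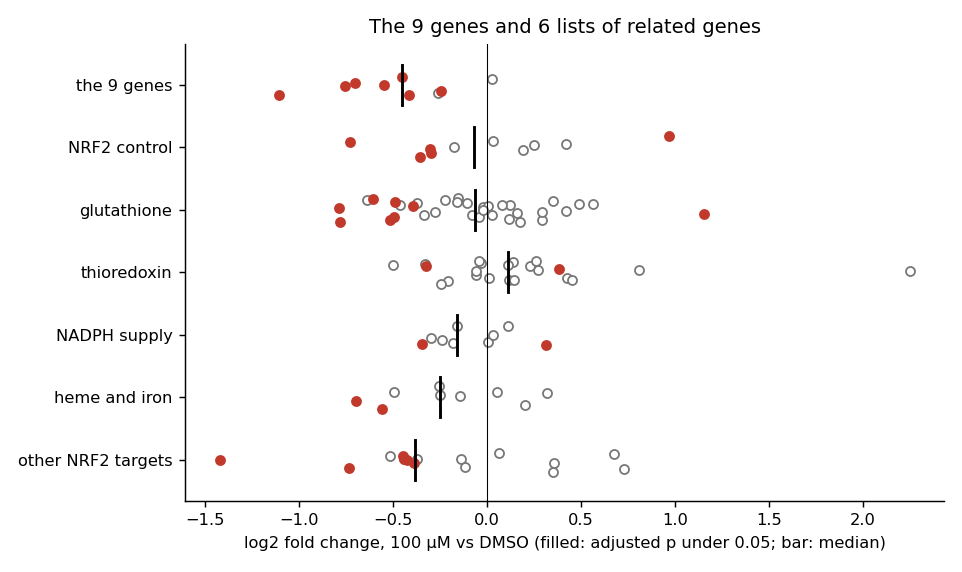
Log2 fold change at 100 µM against DMSO, each point 1 gene, for the 9 genes and 6 lists of related genes; filled points have an edgeR adjusted p under 0.05 and vertical bars are medians. The median is −0.45 for the 9 genes, −0.38 for the 16 other NRF2 targets and 0.11 for the 22 thioredoxin genes.

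Among themselves, 8 of the 9 genes varied together over the 9 libraries. The 28 pairs without HMOX1 had Pearson correlations of log2 CPM between 0.511 and 0.967 (median 0.81), and the 8 pairs with HMOX1 between −0.377 and 0.325 (median −0.0926). These are descriptions over 9 libraries that share 3 groups, and they carry no test. The lower levels of all 8 genes at 100 µM enter these correlations, and pairs of other genes were not described for comparison. Genes outside the 9 reached higher correlations with SRXN1 than any of the 9 did, so varying together is not particular to these genes. The genes with the most similar pattern were taken from 10461 tested genes with a mean of at least 5 CPM. They were DLAT and POLR1B (r = 0.991 each) and FGF2, AIFM1 and LONRF2 (0.99 each) for SRXN1. For GCLM they were OTUD6B (0.978), AASDHPPT (0.976), EPM2AIP1 (0.973), RFK (0.971) and SKP2 (0.97). For HMOX1 they were CAVIN1 (0.983), SLC35E4 (0.977), CYB5R1 (0.974) and COMMD3 (0.973). CAVIN1, the one with the highest level, averaged 361.1 CPM in the control, 298.4 CPM at 50 µM, and 370 CPM at 100 µM.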

How the data were processed

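RNA-seq of 9 HCCLM3 libraries was used, in 3 groups of 3 taken from the labels. Per the labels' protocols RNA was extracted with Trizol, bound to oligo(dT) beads and amplified by PCR, and libraries were treated with a duplex-specific nuclease, which lowers abundant transcripts and can compress differences in level. Its wording is for tissue, while the samples are cells.

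The authors deposited 1 table of 17492 genes with expected counts (estimated counts per gene), TPM and FPKM per library. It also holds the authors' log2 fold changes, p-values and q-values, from DESeq2 per the file headers, and deposited normalised read counts (a signal scaled by size factors), which were not used here. Of the expected counts 26.84% were whole within 1e-06. The submitters' processing notes name RSEM 1.2.12, Bowtie2 2.2.5 and HISAT2 2.0.4 with the build GRCh38.p13; their roles and the strand setting of the counting are not given in the sources used here.

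Expected counts were rounded and filtered with filterByExpr (minimum count 10, total 15, share 0.7), which removed 4660 genes with 0.042% of the counts. TMM scaling and 1 edgeR quasi-likelihood fit (robust, two-sided) of all 9 libraries followed, with Benjamini-Hochberg adjustment over 12832 genes and a threshold of 0.05 (edgeR 4.0.16, limma 3.58.1, R 4.3.3). The biological coefficient of variation was 14.4%. Standard errors were computed from the F value and the size of the log2 fold change. Alternatives were other scalings (RLE, total count, upper quartile), DESeq2 1.42.0, no filter or a minimum count of 50, only the 2 groups compared, limma on log2 values of TPM with pseudocounts of 1 and 0.1 and of FPKM with 1, a replicate block, and leaving out each library or both that stand apart. Fold changes on log2(value + pseudocount) understate those of low genes.

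The members and lists were chosen with earlier results of these data known. Named were the 9 genes, NFE2L2, KEAP1 and BACH1, and from each list up to 3 genes per comparison with the largest change past the threshold and a mean of at least 5 CPM; some of these are given by their counts only. For SRXN1, GCLM and HMOX1 the 5 genes most like each were taken by Pearson correlation of log2 CPM; a result among these is not reported here. MTHFD2 was listed but not tested. Promoter sequences are from RefSeq, GRCh38.p14, and gene positions from the authors' table. For GCLM and NQO1 the authors' positions run past the RefSeq ends of 93909430 and 69726560, so their printed promoters lie inside the positions given. The strand column of the authors' table was not used, since 4218 genes are plus there and minus in RefSeq.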

Additional observations from a re-analysis of the deposited data

How the results depend on the processing

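Over 21 alternatives in 3 comparisons, the log2 fold changes of the 9 genes kept direction and side of the threshold in 456 values; 64 lost a call, 29 gained one and 18 turned in sign, none of them past the threshold. At 100 µM against the control the calls of SRXN1, GCLC, GCLM and SLC7A11 held in all 21, GSR in 19 and TXN in 18. The number of the 9 genes lower was 7 in that comparison, where 10.3% of all genes were lower. With only the 2 groups compared it was 4, where 3.45% of all genes were lower. At 50 µM against the control it was 2 (6.31% of all genes lower), and 4 with only the 2 groups compared (18.0%). It was 1 with the replicate block (1.78%), where GCLC had an edgeR adjusted p of 0.0678. Without both libraries that stand apart it was 6 (28.9%). Between the doses it was 4 (1.89% of all genes lower), and 1 with only the 2 groups compared (0.559%). It was 2 with log2(TPM + 1) (1.5%) and 0 with the replicate block (0.218%). Without both libraries that stand apart it was 7 (22.7%). In that fit 1 gene, HMOX1, was higher in place of 0, beside 24.6% of all genes. Leaving out single libraries gave 4 to 8 lower at 100 µM, 0 to 3 at 50 µM and 0 to 6 between the doses. The shares of all genes lower in those fits ran from 3.52% to 14.6%, 0.331% to 18.2% and 0.0924% to 13.4%. Over the 10 settings that keep all 9 libraries in the fit, the 100 other pathway genes gave 3 to 8 higher and 14 to 28 lower at 100 µM, 0 to 17 higher and 4 to 14 lower at 50 µM, and 1 to 5 higher and 0 to 15 lower between the doses. The shares of all genes in these settings were 6.81% to 13.5% higher and 6.07% to 12.9% lower at 100 µM. At 50 µM they were 1.55% to 9.42% and 1.78% to 10.6%, and between the doses 0.631% to 5.61% and 0.218% to 5.29%. With only the 2 groups compared the 100 genes gave 2 higher and 7 lower at 100 µM, and 21 higher and 21 lower at 50 µM. Between the doses they gave 1 higher and 0 lower. The shares of all genes, in the same order, were 4.63% and 3.45%, 15.8% and 18.0%, and 1.42% and 0.559%. The labels do not say whether replicate numbers pair the libraries. Deviations from the group means correlated between −0.464 and 0.276 for same-numbered libraries and between −0.409 and 0.533 for others. These values cannot decide the pairing, since the 2 libraries that stand apart shape the deviations of their groups.

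Turned values were all small. GCLM at 50 µM against the control, −0.0038, became 0.0068 by total count, 0.0304 by upper quartile, 0.0109 at a minimum count of 50 and 0.0086 with FPKM. It became 0.0209, 0.0229, 0.0352 and 0.0064 without control replicate 1, control replicate 2, replicate 3 at 50 µM and replicate 3 at 100 µM (range over single libraries −0.0377 to 0.0352), and 0.0161 without both that stand apart. NQO1 in that comparison became −0.025 with TPM at either pseudocount, −0.0226 without control replicate 1 (range −0.0226 to 0.0897) and −0.0271 without both. HMOX1 at 100 µM against the control became −0.0374 and −0.0375 with TPM at pseudocounts of 1 and 0.1, and −0.082, −0.0152 and −0.0314 without control replicate 1 and replicates 1 and 2 at 100 µM (range −0.082 to 0.1279). KEAP1 at 50 µM became 0.0172 by upper quartile, 0.0103 with FPKM, 0.0558 and 0.0231 without control replicates 1 and 2 (range −0.1055 to 0.0558), and 0.0489 without both. BACH1 at 100 µM became −0.0441 and −0.0453 with TPM, −0.0784 without replicate 3 at 100 µM (range −0.0784 to 0.1163) and −0.0815 without both. The GCLC to GCLM ratio between the doses, a difference of 0.00861, ran from −0.00154 to 0.0221 over single libraries left out, −0.000131 without replicate 1 at 50 µM.

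The cause of these moves was not tested. With 3 libraries per group and a median standard error of 0.134, small changes are not detectable. Without both libraries that stand apart, more of all genes were called in each comparison.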
